A study of Salmo salar with 40 samples.

Results

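Heavy Atlantic salmon were compared with mid-weight ones sampled on the same day, to ask which liver transcripts differ with body size among fish of one experiment. The labels give a body weight for every fish, and the 2 classes were set by that weight at day 14: the 5 fish of 50 g or more were called heavy, and the 12 fish of 35 to 47 g mid-weight. Together they are 17 of the 40 fish of the series. The 3 control fish of day 14 that weighed under 20 g were left out.

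The series measured liver RNA in Atlantic salmon given 5 mg of lufenuron per kg and in controls given 0 mg per kg, with livers taken at day 8 and day 14. Lufenuron, a drug against sea lice, stops them from making chitin, the material of their shell. Day 14 came some days after the treatment had ended, so the exposed fish of both weight classes had stopped receiving it. Each library is 1 fish, and the sources used here do not give its tank, sex, strain, feed or hour of sampling.

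The heavy class holds control fish 2 and 8 and exposed fish 6, 9 and 10. The mid-weight class holds control fish 1, 3, 4, 5 and 9 and exposed fish 1, 2, 3, 4, 5, 7 and 8. With 3 of 5 heavy and 7 of 12 mid-weight fish exposed, exposure was a covariate in the comparison reported. In the order just given, the heavy fish weighed 67, 52, 57, 66 and 57 g. The mid-weight controls weighed between 42 and 47 g and the mid-weight exposed fish between 35 and 43 g, so within the mid-weight class the exposed fish were mostly the lighter ones. Heavy fish were also longer, from 17 cm upwards against at most 16.3 cm, and the classes did not overlap in length. Their condition factor, 100 times the weight in g over the cube of the length in cm, was 1.044 ± 0.043 in heavy and 1.061 ± 0.053 in mid-weight fish (SD, n = 5 and 12), a description only, since weight set the classes.

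**Figure D1:**
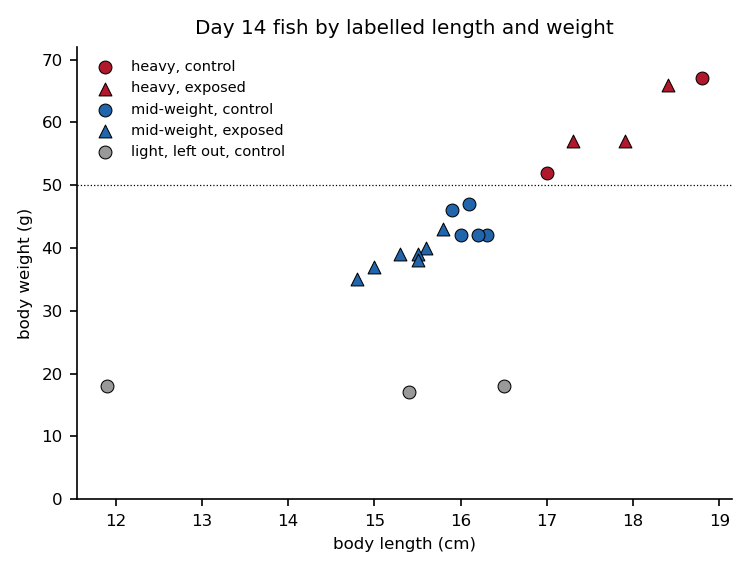
Body weight in g against body length in cm for the 20 day 14 fish, 1 point per fish, with circles for control and triangles for exposed fish. The 5 heavy fish lie above the dotted line at 50 g and the 12 mid-weight fish between 35 and 47 g, while the 3 grey control fish under 20 g were left out.

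The liver is the main target of growth hormone in fish as in mammals. Growth hormone binds its receptor on hepatocytes and drives production of insulin-like growth factors, which circulate bound to IGF binding proteins, and fasting or stress raises the short-lived binding protein IGFBP-1. Faster growth also asks more of the machinery that makes, folds and exports protein, because the liver secretes most plasma proteins. The labels give a body weight but no growth rate, so whether the heavy fish grew faster is not known. Transcripts of DNA replication and mitosis come mainly from dividing cells, which are rare in a resting adult liver. The share of dividing cells in these livers was not measured.

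Between 49.9 and 70.2 M reads (M for mega) per fish were assigned to genes in the 17 libraries, with a median of 58.4 M, so that 1 CPM (CPM, reads of a gene per M reads of the library) stands for at least 48.6 reads. Neither total counts (59.63 ± 4.73 M in heavy and 58.03 ± 6.69 M in mid-weight fish, p = 0.642) nor the share of the 10 most abundant genes (20.98% ± 2.62 and 20.99% ± 1.79, p = 0.996) nor the number of genes detected (37763 ± 1150 and 37818 ± 671, p = 0.897) differed between classes beyond the spread between fish (SD, n = 5 and 12; exact two-sided permutation test within exposure groups, adjusted p = 0.996 for each over 4 measures, the condition factor included). Every library carried liver transcripts: serum albumin 1 (alb1) stood at 9348 to 28781 CPM and transthyretin (ttr) at 174 to 514 CPM. The first 5 principal components held 15.0%, 11.7%, 9.69%, 8.02% and 6.72% of the variance (5000 most variable genes). On none did the class means differ beyond the spread between fish (exact permutation p between 0.168 and 0.694, adjusted p between 0.556 and 0.694). On the first component heavy fish held both ends, with control fish 2 and 8 lowest (-55.13 and -60.31) and exposed fish 9 highest (64.62). Its SD was 52.6 in heavy and 24.8 in mid-weight fish, and the test of means does not address that. The p-values here measure the spread between these fish, and a difference between tanks, if the classes were spread unevenly over them, cannot be told apart from one between classes.

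No gene passed the test between heavy and mid-weight fish. Of 30884 genes tested, 0 had an adjusted p under 0.05 when edgeR's quasi-likelihood test was run with exposure as a covariate (smallest adjusted p = 0.642). At an unadjusted p under 0.05 stood 1556 genes, 5.04% of those tested, of which 729 (2.36%) were higher and 827 (2.68%) lower in heavy fish. DESeq2, run as an alternative with the same covariate, called 7 genes (0.0227%), 5 higher and 2 lower. The exposure term of the same fit, given for scale, also called 0 genes, with 2607 genes (8.44%) at an unadjusted p under 0.05.

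The data bound the size of a difference for most genes. Among the 21381 genes with a mean of at least 1 CPM, the median half-width of the 95% interval of the log2 difference was 0.38. For 18823 of them (88.0%) the interval lay wholly between -1 and 1, so that a doubling or halving between classes falls outside it. These are intervals for single genes, not adjusted for their number.

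**Figure D2:**
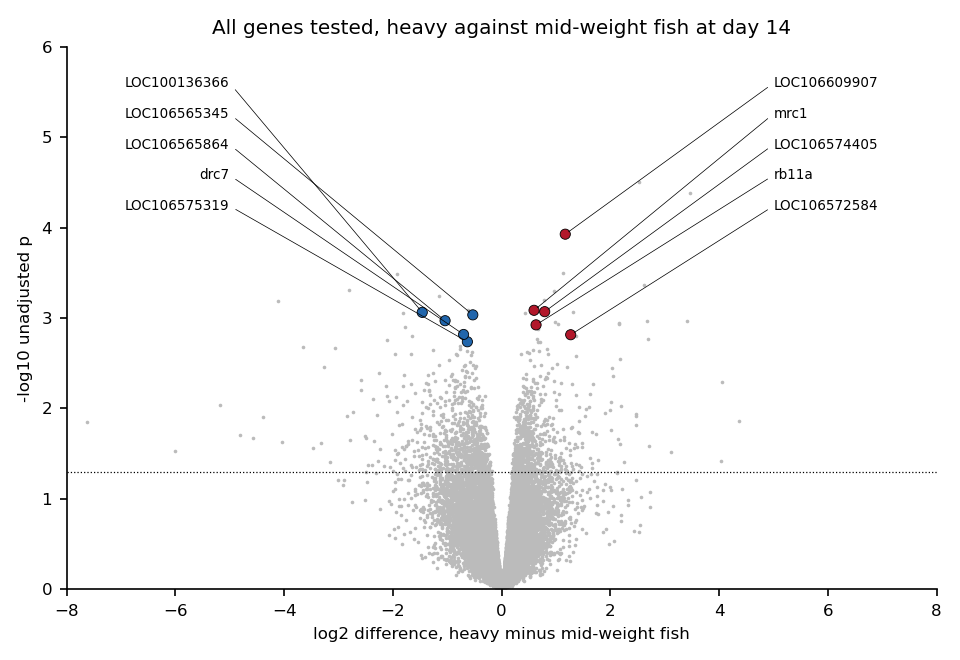
Each grey point is 1 of 30884 genes, with the log2 difference of heavy minus mid-weight fish on the x axis and -log10 of the unadjusted p on the y axis. The dotted line marks an unadjusted p of 0.05, and the 5 higher (red) and 5 lower (blue) named genes of smallest p lie between p = 0.000118 and 0.00183, none past the adjusted threshold.

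The genes of smallest p are given as values, among named genes of at least 1 CPM in which all 5 heavy fish lay beyond the mid-weight median. All 10 have an adjusted p of 0.916 in edgeR's quasi-likelihood test, and log2 differences are heavy minus mid-weight, with their SE. Heavy values are listed in the order of control fish 2 and 8, then exposed fish 6, 9 and 10, and mid-weight values as the lowest, the median and the highest of 12.

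LOC106609907, similar to the large neutral amino acids transporter small subunit 3, a carrier of branched-chain and other neutral amino acids, had the smallest p among them. It stood at 11.3, 11.5, 22.4, 14.2 and 5.63 CPM in the heavy fish, and at 3.07, 5.55 and 8.60 CPM in the mid-weight fish. Of the heavy fish, 4 lay above every mid-weight fish, and exposed fish 10 lay just above the mid-weight median. The log2 difference was 1.17 ± 0.24 (unadjusted p = 0.000118, 95% interval 0.67 to 1.68), and it was 0.88 within control fish and 1.35 within exposed fish. DESeq2 called this gene (adjusted p = 0.0391).

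Another 2 entries carry the same name, and they were looked up after the values were seen. LOC106604665 stood at 6.61, 26.5, 2.34, 0.997 and 1.33 CPM in the heavy fish and at 0.408, 0.741 and 3.89 CPM in the mid-weight fish. The 2 heavy control fish lay above all mid-weight fish and the 3 heavy exposed fish among them. Its log2 difference was 2.02 ± 0.68 (unadjusted p = 0.00839), DESeq2 called it (adjusted p = 0.0186), and without control fish 8 the value was 1.08. LOC106611663 was at 0.51 ± 0.69, with heavy fish between 0.327 and 5.67 CPM and mid-weight fish between 0.164 and 5.04 CPM, and the classes overlapped over nearly their whole range. How reads shared by near-identical copies were assigned is unknown, so single members of this family are uncertain.

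mrc1, the mannose receptor, which in mammals clears glycoproteins from blood on macrophages and liver sinusoidal endothelium, stood at 7.98, 8.19, 7.43, 11.1 and 7.89 CPM in heavy fish. Mid-weight fish stood at 3.68, 5.37 and 7.63 CPM. The heavy fish clustered at or above the top of the mid-weight range, with exposed fish 9 highest, and only exposed fish 6 lay within that range. The log2 difference was 0.60 ± 0.15 (unadjusted p = 0.000821), and leaving out single fish kept it between 0.49 and 0.66. stab2, stabilin 2, another scavenger receptor of sinusoidal endothelium in mammals and the stroma and endothelium marker of smallest p, stood at 6.75, 5.87, 3.43, 2.80 and 2.14 CPM against 1.12, 1.87 and 3.76 CPM. The 2 heavy control fish lay above every mid-weight fish, and the 3 heavy exposed fish within the mid-weight range, above its median (log2 difference 0.80 ± 0.25, unadjusted p = 0.00477). The 52 tested stroma and endothelium markers as a list had a median log2 difference of 0.039, against 0.012 over all genes.

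Both small GTPases among these genes direct membrane traffic. rb11a, Rab-11A, which returns recycling endosomes to the cell surface, stood at 96.4, 68.5, 42.9, 46.3 and 37.5 CPM, against 27.6, 37.1 and 43.8 CPM in mid-weight fish. The 2 heavy control fish stood well above all other fish, and of the 3 heavy exposed fish only fish 9 lay above the mid-weight range. The log2 difference was 0.63 ± 0.17 (unadjusted p = 0.00119), with 1.18 within control and 0.20 within exposed fish. LOC106574405, similar to Rab-9A, which carries cargo from late endosomes to the Golgi, stood at 3.44, 2.71, 2.61, 1.58 and 1.42 CPM, against 0.893, 1.26 and 1.83 CPM. Here 3 heavy fish lay above all mid-weight fish (log2 difference 0.79 ± 0.20, unadjusted p = 0.000850).

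LOC106572584, similar to the 45 kDa subunit of the transcription factor NF-E2, which drives globin genes in red cell precursors, stood at 9.80 CPM in control fish 2 and at 2.47, 1.92, 2.28 and 1.47 CPM in the other heavy fish. Mid-weight fish stood at 0.816, 1.38 and 2.43 CPM, so the classes overlapped apart from control fish 2 and 8. The log2 difference of 1.27 ± 0.34 (unadjusted p = 0.00153) was 0.57 without control fish 2.

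On the lower side, LOC100136366, the chloride channel CFTR II, stood at 1.41, 0.486, 0.338, 0.372 and 0.619 CPM in heavy fish and at 0.746, 1.57 and 2.88 CPM in mid-weight fish. Of the heavy fish, 4 lay below every mid-weight fish, and control fish 2 lay inside their range. The log2 difference was -1.46 ± 0.37 (unadjusted p = 0.000865), with -0.87 within control and -1.94 within exposed fish. CFTR sits on bile duct cells in the mammalian liver. The 15 tested gut and bile duct markers had a median of 0.037, and their summed level was 21.5 to 28.8 CPM in heavy and 18.9 to 30.6 CPM in mid-weight fish.

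LOC106565345, similar to the sodium- and chloride-dependent GABA transporter 2, stood at 5.67, 5.41, 5.08, 7.39 and 6.62 CPM against 6.05, 8.68 and 11.0 CPM. The 2 heavy control fish and exposed fish 6 lay below all mid-weight fish. The log2 difference of -0.53 ± 0.13 (unadjusted p = 0.000922) was -0.53 within control and -0.54 within exposed fish. LOC106565864, T-complex protein 11-like protein 2, stood at 8.14 CPM in control fish 2 and between 3.06 and 3.50 CPM in the other 4 heavy fish, against 4.06, 8.32 and 15.5 CPM, with a log2 difference of -1.04 ± 0.27 (unadjusted p = 0.00107). Control fish 2 thus lay just below the mid-weight median, and the other 4 below every mid-weight fish.

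drc7, a subunit of the dynein regulatory complex of motile cilia, stood at 3.13, 1.96, 2.55, 3.53 and 2.83 CPM against 3.16, 4.16 and 6.90 CPM, and 4 of the 5 heavy fish lay below every mid-weight fish. LOC106575319, similar to the planar cell polarity protein vang-like 1, stood at 3.05, 2.86, 3.77, 4.79 and 5.32 CPM against 4.41, 5.84 and 8.77 CPM, and 3 heavy fish lay below every mid-weight fish. Their log2 differences were -0.70 ± 0.19 and -0.63 ± 0.17 (unadjusted p = 0.00152 and 0.00183).

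**Figure D3:**
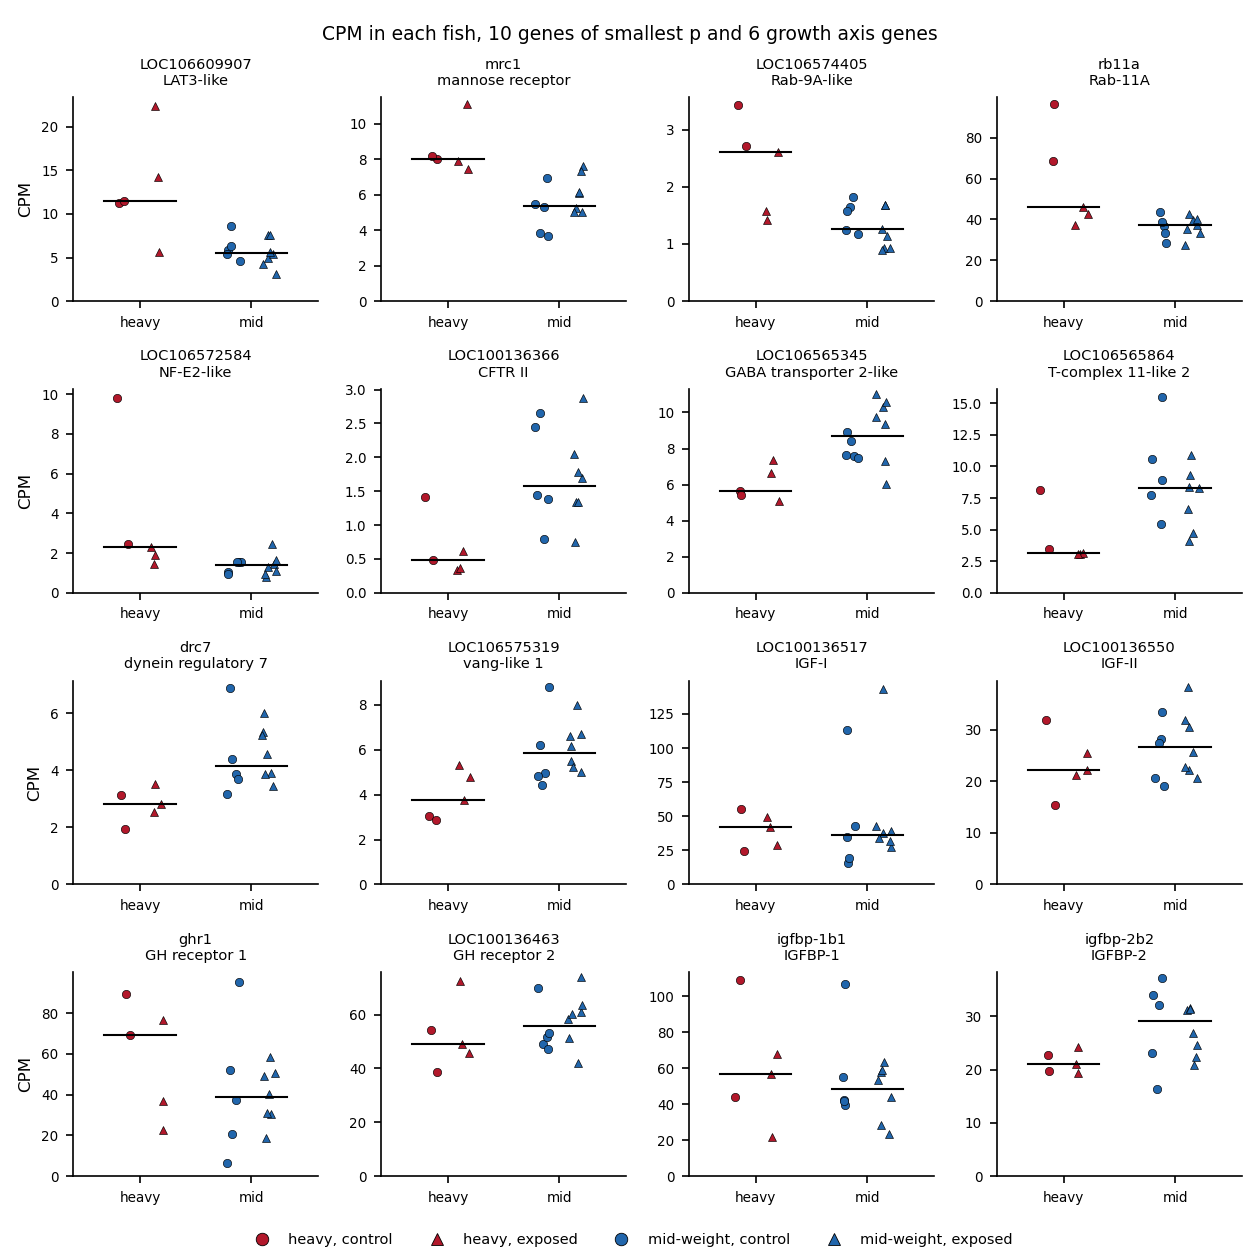
CPM in each of the 17 fish for the 10 named genes of smallest p and 6 genes of the growth hormone axis, with heavy fish in red, mid-weight fish in blue, circles for control fish, triangles for exposed fish and a black line at each class median; every axis starts at 0. LOC106609907 reached 22.4 CPM in a heavy fish and at most 8.60 CPM in a mid-weight fish, while IGF-I (LOC100136517) stood highest, at 143 CPM, in a mid-weight fish.

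In 3 of the 30884 genes (0.00971%) the 2 classes did not overlap in CPM, and these were singled out after their values were seen. kdelc1, which encodes a glycosyltransferase of the endoplasmic reticulum, stood at 4.65, 5.11, 6.30, 5.92 and 6.25 CPM in heavy fish and at 6.34, 7.09 and 10.0 CPM in mid-weight fish, so that the highest heavy fish lay just under the lowest mid-weight fish (log2 difference -0.37 ± 0.12, adjusted p = 0.916 in edgeR's quasi-likelihood test). LOC106575312, similar to the cilium protein Dzip1, stood at 0.129 to 1.16 CPM in heavy fish and at 0.0170 to 0.101 CPM in mid-weight fish (2.52 ± 0.46, adjusted p = 0.642), and LOC106609681, similar to the axon guidance receptor plexin-A4, at 0.0806 to 0.131 and 0.136 to 0.360 CPM (-1.04 ± 0.33, adjusted p = 0.916). Both are scarce transcripts, under the filter's minimum count of 10 in every fish of the class where they were lower. They passed that filter only through the class where they were higher, so their separation is no independent support for a difference.

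DESeq2's 7 calls were LOC106575312, LOC106609907, LOC106604665 and another 4. LOC106597165, similar to the ribosome-bound chaperone dnaJ C2, stood at 0.737, 0.673, 1.69, 0.193 and 0.0155 CPM in heavy fish and at 0 to 0.106 CPM in mid-weight fish. LOC106594642, a pseudogene of the translocon subunit Sec61 beta, stood at 2.35 to 5.80 CPM in heavy fish and at 0.187, 0.742 and 6.60 CPM in mid-weight fish. These 2 had DESeq2 adjusted p of 0.00802 each. In the first, 4 heavy fish lay above every mid-weight fish, and in the second all 5 lay above the mid-weight median but below the highest mid-weight fish. No mid-weight fish reached the filter's minimum count of 10 for LOC106597165 or LOC106575312. Both entered the test through heavy fish alone, so their calls are no independent support for a difference. The 2 lower calls, LOC106595456 (a protein phosphatase 6 ankyrin repeat subunit-like gene, adjusted p = 0.0186) and the uncharacterized LOC106595388 (adjusted p = 0.0391), were at 0 to 0.0748 and 0.0561 to 0.208 CPM in heavy fish, with mid-weight medians of 0.338 and 0.541 CPM. LOC106595456 entered the test through mid-weight fish alone, with the same limit.

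The growth hormone and IGF axis, the pathway that links the liver to growth, did not separate the classes. Of its 38 tested genes 14 were positive and 24 negative in heavy fish, the median log2 difference was -0.12, and 1 gene was higher and 1 lower at an unadjusted p under 0.05 (5.26% against 5.04% of all genes). Without exposed fish 2 the list median was 0.018, with 20 positive and 18 negative genes. Among the receptors, ghr1 stood at 69.4, 89.2, 37.1, 22.8 and 76.5 CPM in heavy fish and at 6.22, 39.0 and 95.5 CPM in mid-weight fish, with a log2 difference of 0.49 ± 0.42 (95% interval -0.40 to 1.38). The heavy fish spanned most of the mid-weight range. The receptor genes LOC100136463 (isoform 2) and LOC106585200 were at -0.13 ± 0.15 and 0.025 ± 0.143, with 95% intervals of -0.44 to 0.17 and -0.28 to 0.33.

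Of the ligands, LOC100136517, insulin-like growth factor I, stood at 24.5, 55.3, 29.0, 42.4 and 49.8 CPM in heavy fish and at 15.4, 36.2 and 143 CPM in mid-weight fish. The highest value belonged to exposed fish 2, a mid-weight fish of 39 g, and the heavy fish lay around the mid-weight median. The log2 difference was -0.27 ± 0.44 (95% interval -1.20 to 0.67), and 0.040 without exposed fish 2. The other entry of insulin-like growth factor I, LOC106609475, was at -0.50 ± 0.44, with the same fish highest at 35.5 CPM. LOC100136550, insulin-like growth factor II, was at -0.20 ± 0.18 (95% interval -0.58 to 0.17), with 15.4 to 31.9 CPM in heavy and 19.2 to 38.4 CPM in mid-weight fish, and its classes overlapped.

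Of the binding proteins, the 3 IGFBP-1 genes, which respond to fasting and stress in fish, were at 0.46 ± 0.54 (igfbp-1a1), 0.20 ± 0.31 (igfbp-1b1) and 0.32 ± 0.53 (igfbp-1b2). Without control fish 8 the first pair were at -0.15 and -0.062, and without exposed fish 10 igfbp-1b2 was at -0.23. igfbp-1b1 stood at 43.9, 109, 56.6, 21.7 and 68.2 CPM in heavy fish and at 23.3, 48.7 and 107 CPM in mid-weight fish, and heavy fish held both the highest and the lowest value of the 17. igfbp-2b2, an IGFBP-2 gene, was the axis gene of smallest p among those of at least 1 CPM, with 19.7, 22.7, 19.4, 21.1 and 24.2 CPM against 16.3, 29.1 and 37.2 CPM. All 5 heavy fish lay in the lower part of the mid-weight range (log2 difference -0.37 ± 0.17, unadjusted p = 0.0389, adjusted p = 0.916 in edgeR's quasi-likelihood test). Thyroid hormone handling, with 16 genes at a median of -0.13, had no gene at an unadjusted p under 0.05. LOC106611368, a type II iodothyronine deiodinase-like gene whose enzyme activates thyroid hormone, was at -0.83 ± 0.40, with 1.96 to 11.5 CPM in heavy and 2.76 to 27.3 CPM in mid-weight fish. The glucocorticoid response list, 27 genes at a median of -0.065, likewise had none, and LOC106585360 (Krueppel-like factor 9) was at -0.74 ± 0.38.

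DNA replication and mitosis genes stood furthest from the all-gene median among lists of liver functions. Of 49 tested genes 48 were negative and 1 positive, while 14833 of all 30884 genes were negative. The list median was -0.80 with quartiles of -1.05 and -0.50, against 0.012 over all genes with quartiles of -0.17 and 0.17. At an unadjusted p under 0.05 stood 6 genes, all lower (12.2% of the list, against 2.68% of all genes lower), and 0 passed the adjusted threshold. This count lay between 3 and 26 when single fish were left out. It was 26 without exposed fish 2, 16 without control fish 2, 12 without control fish 4 and 11 without exposed fish 5 or 10. Without any of 7 other fish it was 3. Over all genes, 1704 of 30689 stood at such a p without exposed fish 2 and 1239 of 31621 without control fish 2. The all-gene number lay between 1211 of 31600 (without control fish 8) and 2380 of 30613 (without exposed fish 9). With DESeq2 the list count was 19 of 49 genes, against 1874 of 30773 over all genes. With the replicate number of the fish as a block it was 2 of 51, against 961 of 34622. All 49 values come from the same 17 livers and do not count as separate replicates.

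LOC106569474, similar to the DNA replication licensing factor mcm6-B, part of the helicase that opens DNA for copying, stood at 18.0, 18.6, 24.5, 19.0 and 34.0 CPM in heavy fish and at 20.4, 39.1 and 56.1 CPM in mid-weight fish. The lowest 3 values of the 17 belonged to heavy fish (log2 difference -0.76 ± 0.21, unadjusted p = 0.00204). ccnb1, cyclin B1, which starts mitosis, stood at 3.23 CPM in control fish 2 and between 0.677 and 0.743 CPM in the other 4 heavy fish, against 0.731, 2.67 and 5.24 CPM (-1.33 ± 0.43, unadjusted p = 0.00619; -1.97 without control fish 2). Both had an adjusted p of 0.916 in edgeR's quasi-likelihood test.

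The level of this list in a fish, the mean over its genes of log2 CPM minus the 17-fish mean, was 0.063, -1.09, -1.07, -0.38 and 0.036 in the heavy fish. In the mid-weight fish it was -1.84 at the lowest, 0.38 at the median and 1.15 at the highest. All 5 heavy fish lay below the mid-weight median, yet the lowest level of all belonged to exposed fish 2, a mid-weight fish, and the classes overlapped. Blood coagulation, at a list median of only 0.019, also had all 5 heavy fish on 1 side, above its mid-weight median. For DNA replication and mitosis the list median was -0.85 within control fish and -0.78 within exposed fish. It lay between -1.02 and -0.62 when single fish were left out. With the replicate number of the fish as a block the list median was -0.37, with 37 of 51 genes negative. Without the 8 fish whose pancreas markers sum to over 50 CPM, which leaves 4 heavy and 5 mid-weight fish, the median was -0.95 with 48 of 48 genes negative. With the log2 sum of those markers as a covariate it was -0.86 with 48 of 49. In the day 8 fish, which the classes do not use, the median slope of this list on log2 body weight was -0.53, against -0.071 over all genes. At an unadjusted p under 0.05 stood 0 of 50 genes. Median slopes of the 35 lists at day 8 lay between -3.05 (gut and bile duct markers) and 1.25 (red cell markers), so -0.53 does not stand out.

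**Figure D4:**
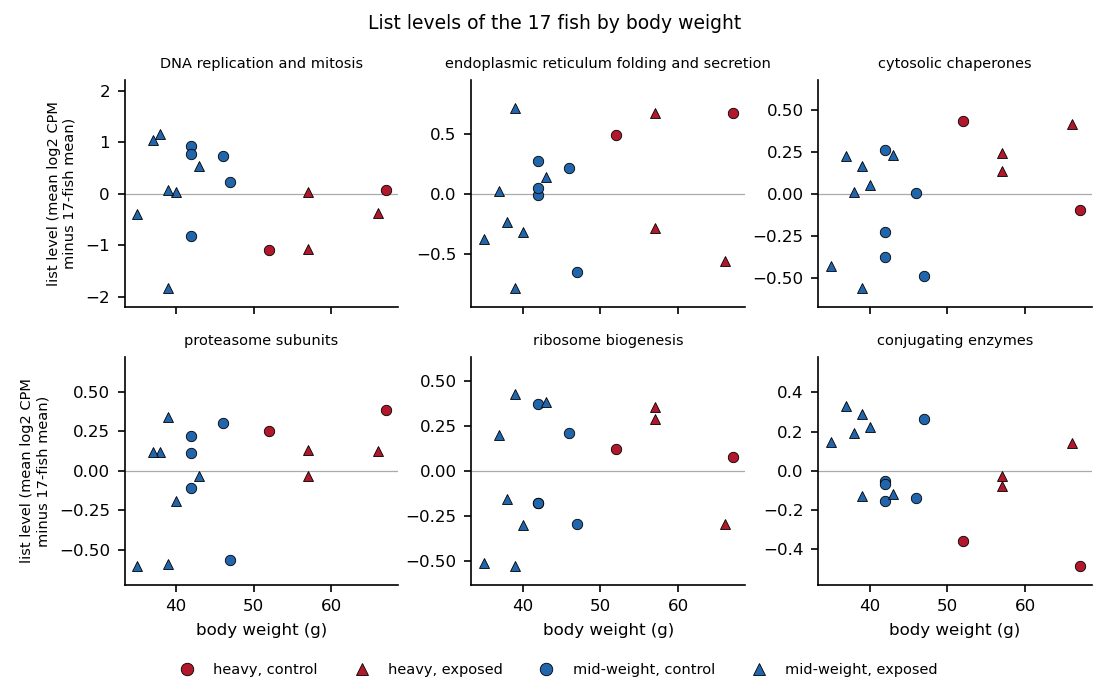
Level of 6 gene lists in each of the 17 fish (mean over the list of log2 CPM minus the 17-fish mean, y axis) against body weight in g (x axis), with heavy fish in red, mid-weight fish in blue, circles for control and triangles for exposed fish. For DNA replication and mitosis all 5 heavy fish lie below the mid-weight median of 0.38 while mid-weight fish span -1.84 to 1.15, and in every panel the classes overlap.

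Genes of protein folding in the endoplasmic reticulum and of secretion were mostly positive. Of 45 tested genes 38 were positive, the median log2 difference was 0.36, and 2 were higher and 1 lower at an unadjusted p under 0.05 (6.67%, against 5.04% of all genes). Without exposed fish 6 the median was 0.17. Leaving out single fish moved the count of 3 genes between 0 and 21. It was 21 without exposed fish 8, 10 without exposed fish 9 and 0 without control fish 2, 8 or 9 or exposed fish 5. Over all genes, 2132 of 30782 stood at such a p without exposed fish 8, 2380 of 30613 without exposed fish 9 and 1239 of 31621 without control fish 2. LOC106574520, similar to the translocon subunit Sec61 beta, stood at 32.8, 27.1, 27.6, 14.0 and 19.8 CPM in heavy fish and at 10.1, 15.9 and 30.9 CPM in mid-weight fish (log2 difference 0.51 ± 0.23, unadjusted p = 0.0362). sdf2l, a co-chaperone of the endoplasmic reticulum, stood at 76.6, 56.9, 62.7, 24.2 and 29.4 CPM against 21.4, 30.5 and 58.9 CPM (0.52 ± 0.25, unadjusted p = 0.0493). In both, the 2 heavy control fish and exposed fish 6 lay high, and exposed fish 9 and 10 lay lower, within the mid-weight range.

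The level of the whole list split the heavy fish the same way, at 0.68, 0.49, 0.67, -0.56 and -0.28, against -0.79, 0.0042 and 0.71 in mid-weight fish. The list median was 0.72 within control fish, with 19 of 42 genes at an unadjusted p under 0.05 against 8.66% of all genes in that fit, and 0.15 within exposed fish, with 1 of 45 genes against 3.42% of all genes. Only 2 heavy control fish stand behind the first value, and whether this list differs between control and exposed fish was not tested as a list. In edgeR's interaction test 1 of its genes had an unadjusted p under 0.05, against 6.57% of all genes in that test. Pancreas markers were handled by 2 alternatives, which gave different values. With their log2 sum as a covariate over all 17 fish the median was 0.36, with 38 of 45 genes positive. Without the 8 fish in which they sum to over 50 CPM, an alternative chosen after seeing the data, it was -0.12, with 12 positive and 31 negative genes. Pancreas tissue is a known companion of fish liver and is rich in endoplasmic reticulum. The summed pancreas markers of the heavy fish were 13.9, 6.98, 360, 43.5 and 10.5 CPM. Among mid-weight fish, the highest folding level (0.71, exposed fish 8) came with 7.39 CPM and the lowest (-0.79, exposed fish 2) with 71.9 CPM. Whether pancreas tissue bears on this list was not tested.

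Cytosolic chaperones had 49 positive and 12 negative genes of 61 and a median of 0.25. At an unadjusted p under 0.05 stood 6 genes, all higher (9.84%, against 2.36% of all genes higher and 5.04% in both directions). That count was 2 without control fish 8, 10 without control fish 9 and 11 without control fish 2. Over all genes it was 1211 of 31600, 1331 of 30761 and 1239 of 31621, in the same order. LOC106613013, similar to the constitutive heat shock cognate 70 kDa protein, stood at 172, 397, 321, 463 and 253 CPM in heavy fish and at 75.3, 184 and 293 CPM in mid-weight fish. Of the heavy fish, 3 lay above every mid-weight fish, and control fish 2 lay below the mid-weight median (log2 difference 0.82 ± 0.25, unadjusted p = 0.00449). LOC106608136, similar to the stress-inducible chaperone HSP 90-alpha, stood at 8.64 CPM in control fish 8 and between 0.593 and 3.17 CPM in the other heavy fish, against 0.119, 1.03 and 1.81 CPM (1.68 ± 0.53, unadjusted p = 0.00541; 0.74 without control fish 8). Leaving out single fish kept the list median between 0.19 and 0.30, and without the fish of high pancreas markers it was 0.14 (43 of 60 genes positive), with those markers as a covariate 0.26 (51 of 62). In day 8 fish the median slope of the list on log2 body weight was 0.0060.

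The proteasome, which degrades tagged proteins, had 93 positive genes of 106, against 16051 of all 30884, and a median of 0.20. At an unadjusted p under 0.05 stood 4 genes, all higher (3.77%, against 2.36% of all genes higher and 5.04% in both directions). That count lay between 1 (without control fish 2) and 10 (without exposed fish 8) when single fish were left out. Over all genes it was 1239 of 31621 and 2132 of 30782 in these fits, in the same order. LOC106570116, similar to its regulatory subunit 4, was at 0.31 ± 0.12, with 4.82 to 7.59 CPM in heavy and 4.26 to 6.95 CPM in mid-weight fish, and psmb9-a, an immunoproteasome subunit, was at 0.38 ± 0.15, with 15.5 to 29.6 and 10.3 to 21.0 CPM. Each had 4 of 5 heavy fish above the mid-weight median. With pancreas markers as a covariate the list median was 0.17, with 93 of 106 genes positive, and without the fish of high pancreas markers it was -0.0051, with 49 positive and 56 negative genes.

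Ribosome biogenesis (56 of 61 genes positive, median 0.12) and the cytosolic ribosomal proteins (172 of 193 positive, median 0.083) shifted by small amounts, with 1.64% and 0.518% of their genes at an unadjusted p under 0.05. Shares of that size lie under the 5.04% of all genes. polr1d, a subunit of RNA polymerases I and III, stood at 1.53, 1.20, 1.50, 1.83 and 1.18 CPM against 0.873, 1.04 and 1.36 CPM (0.42 ± 0.16, unadjusted p = 0.0144), with all 5 heavy fish above the mid-weight median. The ribosomal protein gene of smallest p, LOC106566201 (L32-like), was at -2.39 ± 1.08. Its mid-weight fish ranged from 1.74 to 121 CPM around a median of 3.95 CPM, its heavy fish stood between 2.22 and 5.10 CPM, and without exposed fish 3 the value was -1.27. Both list medians changed sign without the fish of high pancreas markers, to -0.018 and -0.027, and were 0.11 and 0.084 with those markers as a covariate. Genes that restrain growth, such as those of 4E-BP and the mTORC1 inhibitor GATOR1, had a median of -0.062 over 26 genes, and depdc5, a GATOR1 subunit, was at -0.34 ± 0.15.

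**Figure D5:**
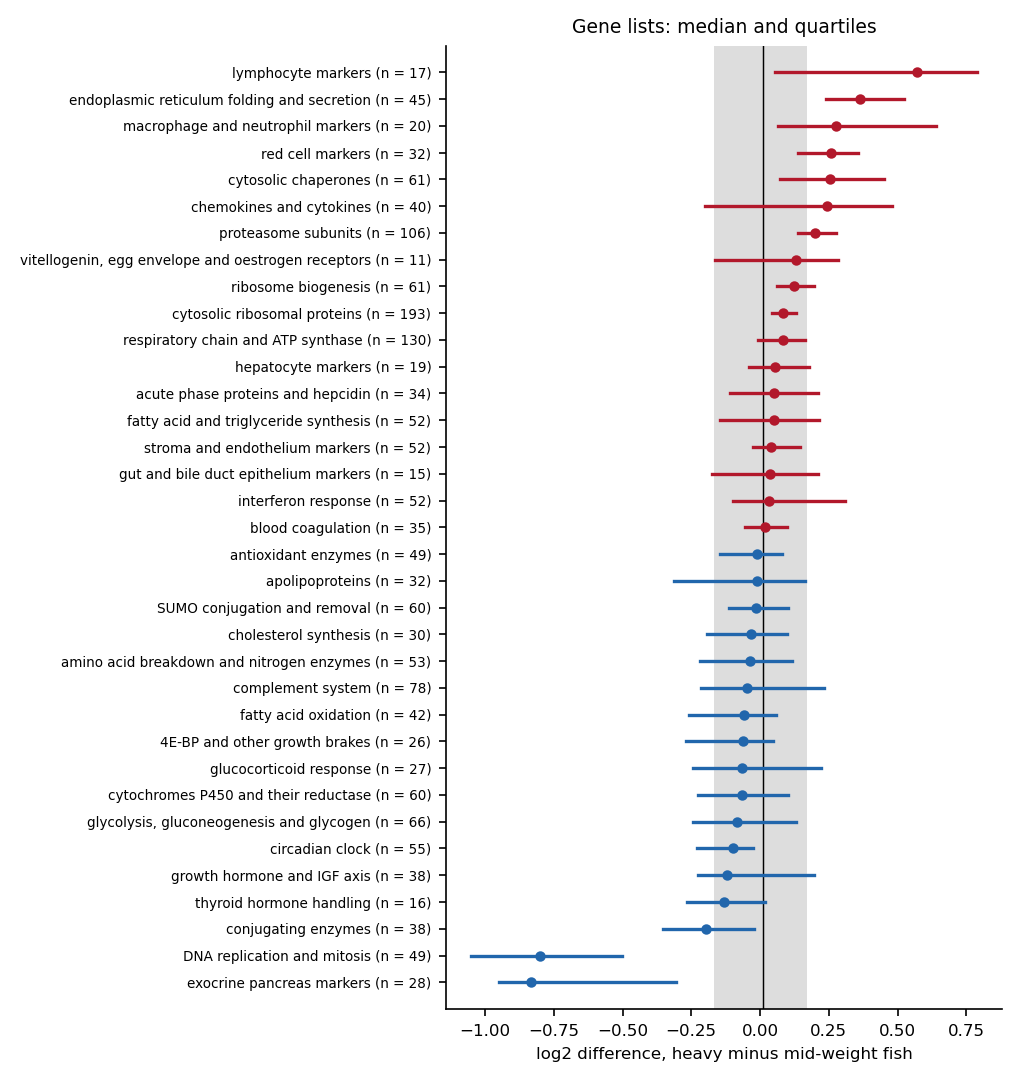
Median (point) and quartiles (line) of the log2 difference, heavy minus mid-weight fish, for each of 35 gene lists, with the number of genes tested; the vertical line and the grey band mark the median (0.012) and quartiles of all 30884 genes. DNA replication and mitosis (-0.80) and exocrine pancreas markers (-0.83) lie lowest, and lymphocyte markers (0.57) and endoplasmic reticulum folding (0.36) highest.

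Medians of the metabolic lists lay within 0.1 of 0 over all 17 fish. Fatty acid and triglyceride synthesis had a median of 0.051 over 52 genes, cholesterol synthesis -0.033 over 30, fatty acid oxidation -0.060 over 42, glucose and glycogen metabolism -0.085 over 66, amino acid breakdown -0.037 over 53 and the respiratory chain 0.082 over 130, the last at -0.026 without the fish of high pancreas markers and 0.071 with those markers as a covariate. Cholesterol synthesis took opposite signs by exposure. Its median was 0.21 with 26 of 30 genes positive within control fish, and -0.20 with 26 of 30 negative within exposed fish. At an unadjusted p under 0.05 stood 2 of 30 genes within control fish (8.66% of all genes) and 1 of 30 within exposed fish (3.42%). Only 2 heavy control fish stand behind the first median, with list levels of 0.46 and 0.25. The highest level, 0.50, belonged to control fish 1, a mid-weight fish. The difference by exposure was not tested for the list. In edgeR's interaction test 4 of its genes had an unadjusted p under 0.05, against 6.57% of all genes in that test. Leaving out single fish moved the list median between -0.21 and 0.10. Fatty acid oxidation had 1 gene higher and 4 lower at an unadjusted p under 0.05 (11.9%, against 5.04% of all genes). That count of 5 was 0 without the fish of high pancreas markers, 1 within exposed fish and 3 without control fish 8 or exposed fish 6. Over all genes, 795 of 29861 stood at such a p without the fish of high pancreas markers and 3.42% within exposed fish. The all-gene count was 1211 of 31600 without control fish 8 and 1301 of 30731 without exposed fish 6. LOC106568363, a short-chain acyl-CoA dehydrogenase of mitochondrial beta-oxidation, stood at 11.0, 9.45, 11.6, 13.2 and 10.6 CPM against 11.7, 14.2 and 15.4 CPM, so that 4 heavy fish lay below every mid-weight fish (-0.31 ± 0.10, unadjusted p = 0.00734). Another of the 4 lower genes is LOC106578452, similar to pyruvate dehydrogenase kinase 3, which spares pyruvate from oxidation. The list is thus not of oxidation enzymes alone. LOC106578452 was at -0.57 ± 0.22, with 26.1 to 48.6 CPM against 27.1 to 87.4 CPM.

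Among single enzymes, LOC106588431, a glyceraldehyde-3-phosphate dehydrogenase-like gene, stood at 99.0 to 193 CPM in heavy and 142 to 313 CPM in mid-weight fish (-0.48 ± 0.19), with all 5 heavy fish below the mid-weight median. LOC106568905, similar to glycogen debranching enzyme, was at -0.71 ± 0.28, acacb, the acetyl-CoA carboxylase that restrains fatty acid oxidation, at -0.58 ± 0.25, and gpt2, an alanine aminotransferase, at -0.57 ± 0.30. LOC106606632, similar to the lipogenic regulator SREBP-1, was at 0.34 ± 0.14, and LOC106564497, a low-density lipoprotein receptor-like gene, at 0.44 ± 0.19 with all 5 heavy fish above the mid-weight median. In the respiratory chain LOC106609477, similar to complex I subunit A12, was at 0.32 ± 0.15. None of these passed the adjusted threshold.

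Plasma lipid carriers split by gene. LOC106577506, similar to apolipoprotein Eb, which directs lipoproteins to their receptors, stood at 96.6, 141, 42.5, 167 and 83.8 CPM in heavy fish and at 34.6, 47.9 and 127 CPM in mid-weight fish. The 2 highest values belonged to heavy fish and exposed fish 6 lay low (0.93 ± 0.28, unadjusted p = 0.00359). LOC106560930, similar to phosphatidylcholine-sterol acyltransferase, the plasma enzyme that esterifies cholesterol, stood at 434, 274, 399, 380 and 296 CPM against 341, 485 and 578 CPM, with all 5 heavy fish below the mid-weight median (-0.44 ± 0.14, unadjusted p = 0.00575). The 32 tested genes of the apolipoprotein list had a median of -0.012.

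Detoxifying enzymes were mostly negative over all 17 fish. Conjugating enzymes had 31 negative genes of 38 and a median of -0.20, with 3 lower at an unadjusted p under 0.05 (7.89%, against 2.68% of all genes lower). The cytochromes P450 had 38 negative of 60 and a median of -0.066, with 3 lower (5.00%). Within exposed fish the conjugating enzymes had 15 positive and 25 negative genes with a median of -0.11. The cytochromes P450 had 31 positive and 28 negative there, with a median of 0.0098. Within control fish the conjugating enzymes had 31 of 38 genes negative, a median of -0.27 and 9 genes at an unadjusted p under 0.05. The cytochromes P450 had 37 of 59 negative, a median of -0.19 and 9 such genes, against 8.66% of all genes in that fit. Only 2 heavy control fish stand behind the values within control fish. Leaving out single fish moved the counts of 3 in the fit of all 17 fish. They lay between 1 (control fish 2 or 8) and 6 (exposed fish 9) for conjugation and between 2 and 7 (exposed fish 9) for P450. Over all genes, 1239 of 31621 stood at such a p without control fish 2, 1211 of 31600 without control fish 8 and 2380 of 30613 without exposed fish 9. cyp1a, the P450 induced through the aryl hydrocarbon receptor, stood at 27.1, 17.4, 49.7, 147 and 121 CPM in heavy fish and at 58.3, 107 and 380 CPM in mid-weight fish. The 2 heavy control fish and exposed fish 6 lay below every mid-weight fish, and exposed fish 9 and 10 above the mid-weight median (-1.26 ± 0.35, unadjusted p = 0.00225 in edgeR's quasi-likelihood test). That median pools mid-weight controls, at 58.3 to 101 CPM, with mid-weight exposed fish, at 75.2 to 380 CPM, and exposed fish 9 and 10 lay inside the latter range. The log2 difference was -1.95 within control and -0.88 within exposed fish. In day 8 fish cyp1a had a slope on log2 body weight of -5.70 (unadjusted p = 0.00980), not past the adjusted threshold.

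LOC106590122 and LOC106581954, UDP-glucuronosyltransferases that tag compounds for excretion, were at -0.49 ± 0.20 and -0.44 ± 0.19. The first stood at 50.5 and 65.1 CPM in the 2 heavy control fish, below every mid-weight fish, and at 128 to 153 CPM in the 3 heavy exposed fish. The mid-weight median of 127 CPM pools controls, at 97.8 to 161 CPM, with exposed fish, at 99.1 to 209 CPM. The log2 difference of LOC106590122 was -1.03 within control and -0.18 within exposed fish. LOC106572755, a cytochrome P450 2K1-like gene, was at -0.59 ± 0.24, and cata, catalase, which breaks down hydrogen peroxide, at -0.42 ± 0.17 with 35.7 to 71.7 CPM against 48.3 to 90.5 CPM. Antioxidant enzymes as a list had a median of -0.012 over 49 genes.

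Circadian clock genes had 44 negative of 55 and a median of -0.10. LOC106589861, similar to hepatic leukemia factor, a clock output factor, stood at 2.41, 3.61, 5.80, 2.93 and 4.61 CPM against 3.79, 6.73 and 11.5 CPM (-0.82 ± 0.26, unadjusted p = 0.00562), with 3 heavy fish below every mid-weight fish. LOC106583133, similar to period 3, was at -0.66 ± 0.29, with all 5 heavy fish below the mid-weight median. Without control fish 2 the list median was -0.020. The title of the series names the SUMO pathway, and its list had a median of -0.014 over 60 genes. At an unadjusted p under 0.05 stood 3 genes, all lower (5.00%, against 2.68% of all genes lower). LOC106582182, similar to the SUMO ligase RanBP2, stood at 0.431 to 1.29 CPM in heavy and 0.578 to 4.15 CPM in mid-weight fish (-1.18 ± 0.44), and LOC106601802, small ubiquitin-related modifier 2, at 0.238 to 2.57 and 0.177 to 19.3 CPM (-2.52 ± 0.98).

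Single fish stood behind several immune values. cfhr5, complement factor H-related 5, stood at 408 CPM in control fish 8 and between 7.94 and 8.91 CPM in the other heavy fish, against 6.34, 9.43 and 13.2 CPM. Its log2 difference of 2.47 ± 0.87 (unadjusted p = 0.0121) was -0.12 without that fish. The complement list had a median of -0.047 over 78 genes, blood coagulation 0.019 over 35, the acute phase 0.053 over 34 and the interferon response 0.033 over 52, the last at -0.15 without exposed fish 9. LOC106566600, a complement C7-like gene, was at 0.74 ± 0.32, LOC106612066, similar to coagulation factor VIII, at 0.28 ± 0.14, LOC106612385, a SOCS3-like inhibitor of cytokine signalling, at -0.42 ± 0.16 and LOC106608810, an interferon-induced GTPase-like gene, at -0.22 ± 0.11.

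Chemokines and cytokines had a median of 0.24 over 40 genes, with 3 higher and 2 lower at an unadjusted p under 0.05 (12.5%, against 5.04% of all genes). Without exposed fish 9 the median was -0.27 and the count 1, against 2380 of 30613 over all genes. Within control fish the median was -0.43. LOC106604935, similar to CXCL14, was at -0.94 ± 0.36, with 3.93 to 16.0 CPM against 5.20 to 41.6 CPM, and ccl25 at 0.40 ± 0.18, with 3.05 to 5.71 CPM against 2.20 to 4.37 CPM. Vitellogenin and oestrogen receptor genes had a median of 0.13 over 11 genes, and LOC100846972, estrogen receptor beta 2, was at -0.38 ± 0.20.

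Markers of other cells were summed per fish, and in bulk liver fewer cells of a type and less RNA per cell cannot be told apart. Exocrine pancreas markers, of which 9 of 50 entries had no read in any of the 17 fish, summed to 6.98 to 360 CPM in heavy fish (median 13.9) and 6.77 to 356 CPM in mid-weight fish (median 64.8; exact permutation p = 0.486, adjusted over 6 lists 0.747). Of the 28 tested genes 25 were negative with a median of -0.83 and none at an unadjusted p under 0.05. Without exposed fish 6 the median was -3.35 with 16 genes at an unadjusted p under 0.05, against 1301 of 30731 over all genes. Within exposed fish the median was 0.030 with 15 positive and 13 negative genes. ctrl, chymotrypsin-like, was at -0.997 ± 1.34. Red cell markers summed to 1898 to 4913 CPM in heavy and 1602 to 4878 CPM in mid-weight fish (exact permutation p = 0.316), with 6 of 46 entries unread, and LOC106601073, a beta-globin-like gene, was at 0.59 ± 0.27.

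Lymphocyte markers (13.9 to 30.5 and 15.6 to 25.6 CPM, exact permutation p = 0.622) and macrophage and neutrophil markers (300 to 1032 and 300 to 399 CPM, p = 0.331) were highest in exposed fish 9, a heavy fish of 66 g. Exposed fish 9 also held the highest stroma and endothelium sum, 1691 CPM against at most 773 CPM in the other heavy fish and 1176 CPM in mid-weight fish. The list medians of the first pair, 0.57 over 17 genes and 0.28 over 20 genes, were -0.11 and -0.32 without that fish. LOC106566399, similar to matrix metalloproteinase 9 of neutrophils, stood at 20.7 CPM in it and at 0.432 to 4.51 CPM in all other fish (1.43 ± 0.65, and -0.16 without it), LOC106581970, similar to the T cell protein CD3 zeta, was at -0.15 ± 0.11, and LOC106575012, a mucin-2-like gene, at 0.36 ± 0.16. Hepatocyte markers had a median of 0.055 over 19 genes, with LOC106608432, a fibrinogen alpha-like gene, at 0.27 ± 0.15.

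Whether the weight difference itself depended on exposure was tested with an interaction term. Of 32696 genes edgeR's quasi-likelihood test called 0 (smallest adjusted p = 0.711), with 2149 (6.57%) at an unadjusted p under 0.05. DESeq2 called 33 genes, 17 with a positive and 16 with a negative term. Some of these terms were too large to be read as fold changes, such as -30.0 for LOC106583646 and 27.0 for LOC106610933. Only 2 heavy control fish enter the interaction. Without control fish 2 edgeR called 1 gene, cfhr5, in a fit with 1 heavy control fish, control fish 8. LOC106603328, similar to the chromatin-reading protein BRWD3, stood at 29.0, 32.0, 11.1, 9.71 and 12.4 CPM in heavy fish and at 13.2, 25.1 and 32.4 CPM in mid-weight fish, so that the heavy exposed fish lay below every mid-weight fish and the heavy control fish near their top (interaction -1.63 ± 0.33, adjusted p = 0.711). LOC106568909, similar to the nuclear receptor RXR-gamma-A, stood at 0.430 and 0.954 CPM in the heavy control fish, below every mid-weight fish, and at 4.51, 2.96 and 3.30 CPM in the heavy exposed fish, against 1.51, 2.42 and 3.65 CPM (2.19 ± 0.48, adjusted p = 0.711). These 2 genes have the smallest p of the named genes in each direction, and DESeq2 called both (adjusted p = 0.0134).

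The 20 fish of day 8, between 34 and 44 g, gave a separate look at body weight over a narrower range. With log2 body weight as a slope and exposure as a covariate, edgeR's quasi-likelihood test called 0 of 31551 genes (smallest adjusted p = 0.298), while DESeq2 called 4. An unadjusted p under 0.05 was found for 1526 genes (4.84%). LOC106609907 had a slope of -2.67 at day 8 (unadjusted p = 0.151), opposite in sign to its difference at day 14. Slopes for mrc1, rb11a and LOC100136366 were -0.61, -0.72 and -0.69 (unadjusted p = 0.495, 0.234 and 0.534), each a log2 change per doubling of weight.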

How the data were processed

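Liver RNA was purified with poly-T beads and sequenced with NEBNext reagents, per the labels' protocols. The file the authors deposited is a matrix of unnormalized counts, 79140 gene entries by 40 fish, all whole numbers; 5 entries had names turned into dates and are not named. HTSeq, HISAT2, Cufflinks and DESeq2 appear, per the submitters' processing notes, without stated roles. The sources used here do not give build, annotation, strand use or the handling of multi-mapping reads, so members of duplicated families, overlapping genes and antisense partners are uncertain.

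From these counts, edgeR 4.0.16 (limma 3.58.1, R 4.3.3) kept genes by filterByExpr (minimum count 10, minimum total 15; 99.95% of counts), scaled by TMM and fitted a robust quasi-likelihood model of exposure and weight class over 17 fish (common biological coefficient of variation 0.381). P-values were adjusted by Benjamini-Hochberg, with a threshold of 0.05. SE and 95% intervals come from the F statistic. CPM uses TMM-scaled library sizes, and log2 CPM a prior count of 2. The script was tested on simulated counts. Single values per fish were compared by exact two-sided permutation within exposure groups (2520 arrangements, smallest p 0.000397). Alternatives were other scalings, filters and covariates, DESeq2 1.42.0, slopes on weight or length, single exposure groups and leaving out each fish. All 136 library pairs differed by more than sampling noise (22182 genes, chi-square per gene at least 62.9). Figures were drawn with matplotlib.

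The weight classes and the 35 gene lists were chosen with earlier results of these data known. Name patterns of the lists were adapted to the deposited names, which stop at the first comma. Named genes were to be the 12 largest rises and falls among named genes past the threshold with a mean of at least 1 CPM and all 5 heavy fish beyond the mid-weight median; since none passed, the 5 of smallest p per direction are given as values. Of each list, up to 2 members at an unadjusted p under 0.05 or otherwise 1 are named; this limit, the floor of 1 CPM for list members and the naming of 1 interaction gene per direction were set after the data were seen.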

Additional observations from a re-analysis of the deposited data

Results flagged for a closer look

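Within the heavy fish, the mid-weight control fish and the mid-weight exposed fish, 258 groups of values were examined for 1 fish far from the rest, by the gap to its neighbour over the range of the group, and 15 met the limit; chance gives about 1 in 20 such groups. Exposed fish 9 was highest among heavy fish for the summed macrophage and neutrophil markers (1032 CPM, next 349), the summed stroma and endothelium markers (1691 CPM, next 773) and mrc1 (11.1 CPM, next 8.19). Control fish 2 was highest among heavy fish for LOC106572584 (9.80 CPM, next 2.47), LOC106565864 (8.14 CPM, next 3.50) and ccnb1 (3.23 CPM, next 0.743).

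Single heavy fish also stood apart for cfhr5, at 408 CPM in control fish 8 (next 8.91), and for the SOCS3-like LOC106612385, at 9.89 CPM in exposed fish 10 (next 6.57). Among mid-weight exposed fish, fish 2 was highest for both entries of insulin-like growth factor I, LOC100136517 at 143 CPM (next 43.2) and LOC106609475 at 35.5 CPM (next 11.7), and lowest for LOC106575312 at 0.0170 CPM (next 0.0551). Fish 3 was highest for the L32-like LOC106566201 at 54.5 CPM (next 6.62), fish 4 lowest for LOC106603328 at 13.2 CPM (next 23.0) and fish 5 lowest for LOC106597165 at 0 CPM (0.00, next 0.0642). Among mid-weight control fish, fish 1 was highest for the low-density lipoprotein receptor-like LOC106564497 at 6.88 CPM (next 4.27).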

How the results depend on the processing

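The count of 0 genes between the classes held in edgeR under every alternative run, with a smallest adjusted p of 0.0688 without exposed fish 10, and DESeq2 called 7. DESeq2 called 33 genes for the interaction and 4 for the day 8 slope. Leaving out single fish gave 0 to 0 genes between the classes and 0 to 1 for the interaction, where control fish 2 was left out. With the replicate number as a block 0 genes passed and 961 had an unadjusted p under 0.05. The residuals of the 7 same-numbered pairs correlated between -0.197 and 0.171. Whether equal numbers mark a shared tank or handling is not given, and these correlations cannot decide it.

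Of the 78 named genes 68 kept the sign of their difference in all alternatives. Most were named for a small p, a DESeq2 call or a separation in these same fish. A kept sign is therefore partly built in and is no independent support. Alone in exposed fish, cfhr5 was at -0.092, LOC106585200 at -0.070, igfbp-1a1 at -0.508 and LOC106568909 at 0.531. Alone in control fish, igfbp-1b2 was at -0.321 and LOC106603328 at 0.408. With the block igfbp-1b2 was at -0.535, with length as a slope igfbp-1b1 at -0.335, and LOC106568909 at 0.052 without exposure and 0.0033 with weight as a slope. Without the fish of high pancreas markers, an alternative chosen after seeing the data, ctrl was at 0.464, igfbp-1b1 at -0.061 and igfbp-1b2 at -0.098.

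Leaving out single fish gave ranges that cross 0 for cfhr5 (-0.124 to 2.99), LOC106566399 (-0.164 to 1.70), LOC100136517 (-0.476 to 0.040), LOC106585200 (-0.031 to 0.079), igfbp-1a1 (-0.150 to 0.800), igfbp-1b1 (-0.062 to 0.397), igfbp-1b2 (-0.231 to 0.562) and LOC106568909 (-0.422 to 0.158). The same held for total counts (-0.014 to 2.967 M) and for the log2 sums of lymphocyte (-0.080 to 0.191), macrophage and neutrophil (-0.099 to 0.346) and stroma and endothelium markers (-0.232 to 0.119). Of the 35 list medians, 35 kept their sign with RLE size factors, 34 with total counts only, 25 in control fish alone, 27 in exposed fish alone, 33 with summed pancreas markers as a covariate and 25 without the fish of high pancreas markers. With the replicate block 27 kept it; the medians of ribosome biogenesis (-0.21) and ribosomal proteins (-0.18) turned, and that of DNA replication and mitosis was -0.37 with 37 of 51 genes negative. In the block fit exposed fish 6, 7 and 10 had no same-numbered partner, since control fish 6, 7 and 10 were left out. They add nothing to its contrast, which among heavy fish rested on control fish 2 and 8 and exposed fish 9. The cause of these changes was not tested. With 5 heavy fish, 18823 of the 21381 genes of at least 1 CPM have 95% intervals within 1 of 0 on the log2 scale; for the others a doubling is not bounded.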
